A study of Mus musculus with 9 samples.

Results

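The Ms4a family was described through 9 genes of 31053 in the deposited table: Ms4a1, Ms4a2, Ms4a3, Ms4a4b, Ms4a4c, Ms4a6b, Ms4a6c, Ms4a6d, and Ms4a7. They were taken by gene symbol and read in every cell class of femur bone marrow and in every mouse. The mice were 9 adult females aged 9 to 10 weeks, 3 each of the inbred strains NZB (New Zealand Black) and NZW (New Zealand White) and of their F1 hybrid NZBWF1, which develops a lupus-like disease and is labelled SLE in the sample titles. The labels give no treatment, and every mouse gave 1 single-cell RNA library made with a kit that reads the 3′ end of transcripts. Each transcript molecule is counted once, as a UMI (unique molecular identifier), so the levels of different genes can be set side by side without dividing by length. A level is given as CPM, the UMIs of a gene scaled to a common total of UMIs of its class in that mouse (counts per 1000000), and a mean is given with its SD over mice.

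MS4A proteins cross the cell membrane several times and sit in the plasma membrane, often beside other receptors whose signal they modify. The best known is CD20, the product of Ms4a1, which marks B cells and is the target of antibodies given in lymphoma and autoimmune disease. Ms4a2 encodes the beta chain of the high-affinity IgE receptor of basophils and mast cells, and Ms4a3 encodes a protein of myeloid precursors that binds the phosphatase Cdkn3. The mouse has an expanded set of Ms4a4 and Ms4a6 genes, found in lymphocytes and in monocytes and macrophages.

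After filtering, 39051 of 68444 barcodes were kept, 2455 to 5684 per mouse, with a median of 2182.5 to 2536.5 UMIs per cell. Of these, 33213 cells fell into 20 classes set by marker genes, and the class names mean cells that carry those marker RNAs, since no protein was measured. No Ms4a gene was among the markers, so the levels below did not enter the gates, though the gates were chosen with earlier results of these data known. The removal of doublets did not leave Ms4a genes out. Of the remaining barcodes, 2526 were removed as probable doublets, 1734 carried the markers of more than 1 class, and 1578 passed no gate. The 1734 include cells of other classes with 2% or more of their UMIs in neutrophil markers (35% or more for granulocyte-monocyte precursors). A barcode string seen in more than 1 library was carried by 342 kept cells (0.876%). The 9 genes together held 71889 UMIs in the classes, which was 0.0684% of all UMIs there. Free RNA made up 0.439% to 1.21% of the UMIs of lymphoid cells, as estimated from neutrophil genes. Lymphoid cells at 2% or more of UMIs in these genes had been left out before, so the estimate can be too low.

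The 9 genes lie within 391 kb of chromosome 19 (positions in GRCm38, GENCODE vM21), and all are protein-coding. Ms4a1 is at chr19:11249675-11266241 and Ms4a7 at chr19:11321039-11336146, both on the minus strand. Ms4a4c (chr19:11404770-11427246), Ms4a4b (chr19:11443553-11467055), Ms4a6c (chr19:11469366-11482192), and Ms4a6b (chr19:11516512-11531256) follow one another on the plus strand. Ms4a6d (chr19:11586604-11604849), Ms4a2 (chr19:11615523-11623719), and Ms4a3 (chr19:11629496-11640851) close the row on the minus strand.

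**Figure D1:**
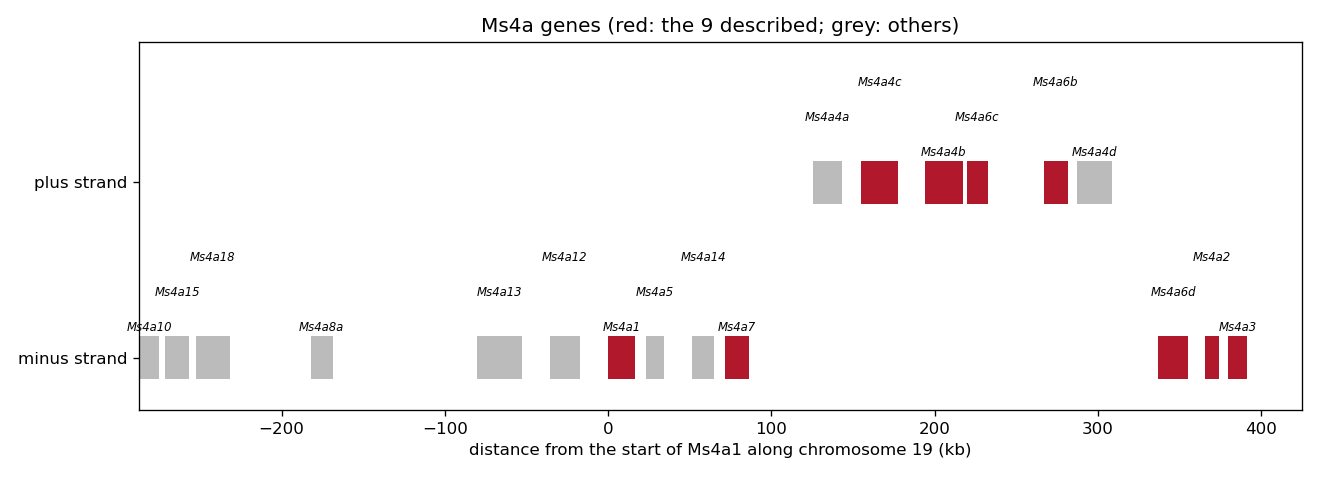
Map of the Ms4a genes on chromosome 19, with the distance from the start of Ms4a1 in kb on the horizontal axis and the strand on the vertical axis. The 9 genes described (red) span 391 kb, 4 of them on the plus strand and 5 on the minus strand, with further Ms4a genes (grey) between and before them.

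The promoters of the plus-strand genes are shown because they are copies in part. Each sequence runs 5′ to 3′ from 250 bases before to 50 bases after the RefSeq start (GRCm38.p6, plus strand), at chr19:11407411-11407710 for Ms4a4c, chr19:11443308-11443607 for Ms4a4b, chr19:11469118-11469417 for Ms4a6c, and chr19:11518309-11518608 for Ms4a6b. Capitals mark runs of at least 12 bases that a gene shares with its copy (Ms4a4c with Ms4a4b, Ms4a6c with Ms4a6b).
Ms4a4c: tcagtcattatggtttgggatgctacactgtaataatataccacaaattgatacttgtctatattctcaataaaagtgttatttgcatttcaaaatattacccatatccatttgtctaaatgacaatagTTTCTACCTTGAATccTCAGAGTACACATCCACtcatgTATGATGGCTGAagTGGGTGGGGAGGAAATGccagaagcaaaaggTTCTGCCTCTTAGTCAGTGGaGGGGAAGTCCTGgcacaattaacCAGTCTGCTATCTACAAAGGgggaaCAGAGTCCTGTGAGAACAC
Ms4a4b: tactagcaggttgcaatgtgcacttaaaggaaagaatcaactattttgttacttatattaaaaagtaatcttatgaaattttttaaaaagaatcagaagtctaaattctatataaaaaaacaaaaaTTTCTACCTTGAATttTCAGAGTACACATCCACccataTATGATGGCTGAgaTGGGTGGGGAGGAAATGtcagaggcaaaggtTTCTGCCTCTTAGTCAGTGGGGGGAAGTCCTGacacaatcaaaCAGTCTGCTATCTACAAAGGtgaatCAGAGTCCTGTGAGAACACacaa
Ms4a6c: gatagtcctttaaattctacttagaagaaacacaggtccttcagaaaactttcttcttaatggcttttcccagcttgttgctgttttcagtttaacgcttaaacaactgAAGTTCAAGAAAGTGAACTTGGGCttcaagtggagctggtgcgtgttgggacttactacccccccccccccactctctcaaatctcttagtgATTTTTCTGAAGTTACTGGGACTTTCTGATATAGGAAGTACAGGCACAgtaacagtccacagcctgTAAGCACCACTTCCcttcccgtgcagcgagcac
Ms4a6b: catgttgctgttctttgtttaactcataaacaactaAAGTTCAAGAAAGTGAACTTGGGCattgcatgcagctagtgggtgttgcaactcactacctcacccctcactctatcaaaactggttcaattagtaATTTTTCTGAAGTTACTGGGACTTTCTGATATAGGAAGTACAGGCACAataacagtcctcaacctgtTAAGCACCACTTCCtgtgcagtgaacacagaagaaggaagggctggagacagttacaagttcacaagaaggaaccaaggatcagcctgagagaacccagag

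The Ms4a4 pair shared 131 of 300 bases (43.7%) in such runs, the longest of 20 bases. The Ms4a6 pair shared 86 of 300 (28.7%), the longest of 48 bases. The letters AGGAAGT, a core bound by ETS factors such as PU.1, were searched on both strands, as were the letters GAAANNGAA, a core bound by interferon regulatory factors. The first were in 9.35% and the second in 8.56% of 32851 RefSeq promoters of the same length, and no match named here overlapped another. Ms4a6c held AGGAAGT 17 bases and GAAANNGAA 133 bases upstream of its start. Ms4a6b held AGGAAGT 86 and 43 bases and GAAANNGAA 206 bases upstream. Both RefSeq promoters of Ms4a7 held GAAANNGAA and not AGGAAGT, and neither set of letters was in the windows of Ms4a4b, Ms4a4c, Ms4a2, or Ms4a3. Of the 9 genes, 7 had an entry, and those without one were Ms4a1 and Ms4a6d.

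Reads that fit both copies cannot be assigned. In the last 500 bases of the annotated transcripts, 11.8% of the 50-base windows of Ms4a4c were also in Ms4a4b, and 10.4% of those of Ms4a6c were also in Ms4a6b. The other ordered pairs of the 9 genes shared 0 windows there.

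The genes divided the marrow between them (heat map of the mean level by class). Ms4a1 was at its highest in mature B cells, Ms4a4b in NK and T cells, Ms4a2 in basophils or mast cells, Ms4a3 in granulocyte-monocyte precursors, Ms4a7 in macrophages, and Ms4a4c, Ms4a6c, and Ms4a6d in classical monocytes. Ms4a6b was high both in T cells and in classical monocytes. In erythroid cells the 9 means lay at 5.55 CPM or below.

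**Figure D2:**
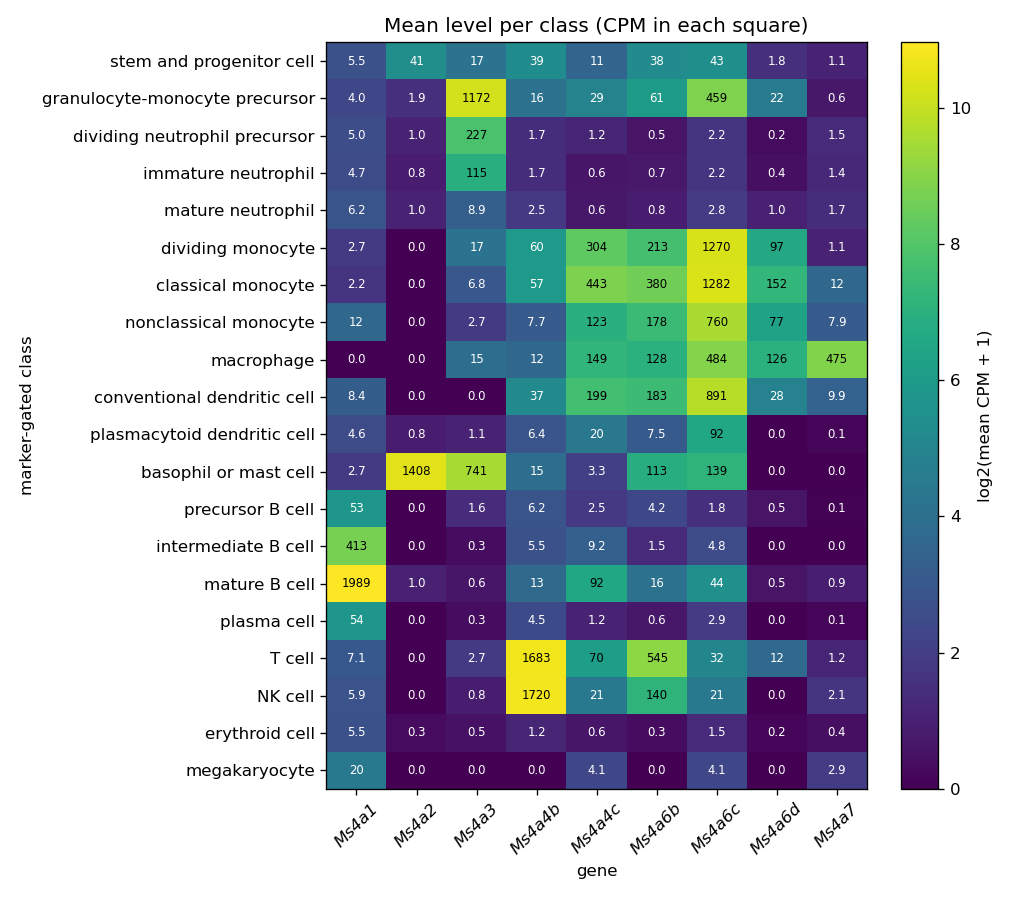
Mean level of the 9 genes in 20 marker-gated classes, with the CPM written in each square and the colour giving log2(mean CPM + 1). Mice with at least 10 cells of a class enter the mean. Ms4a1 reached 1989 CPM in mature B cells, Ms4a4b 1720 CPM in NK cells, and Ms4a7 475 CPM in macrophages and 11.9 CPM or less in every other class.

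In B cells, the level of Ms4a1 was higher in each class from precursor to mature, though the adjusted p of each step was just above 0.05. Its level was 52.7 ± 16.8 CPM in precursor B cells, 413 ± 193 CPM in intermediate B cells, and 1989 ± 235 CPM in mature B cells (n = 9 mice each). Both steps were upward in 9 of 9 mice, by 2.85 ± 0.84 and 2.41 ± 0.62 on the log2(CPM + 1) scale (exact sign-flip test, p = 0.00391 each, the smallest p that 9 mice can give, adjusted p = 0.0543 over 153 pairs of neighbouring classes). B cells were split by whether UMIs of precursor or of mature marker genes were more numerous. Those with equal numbers are called intermediate, also where a cell had no UMI of either, so this class need not be a stage between the others. Markers of dividing cells took 0.389% of the UMIs of intermediate, 0.381% of precursor, and 0.0744% of mature B cells. In plasma cells the level was 53.9 ± 27.9 CPM (n = 7), close to that of precursor B cells. With each cell thinned to 1000 UMIs, 75.0% of mature B cells, 17.2% of intermediate B cells, and 3.68% of precursor B cells held an Ms4a1 UMI, against 0.38% of T cells, which do not express CD20 (81.6%, 18.6%, 5.44%, and 0.54% without thinning). Over the 9 mice, the level in mature B cells had a lowest value of 1545, a median of 2085, and a highest value of 2240 CPM. The 3 NZB mice (1811, 1545, and 1791 CPM) lay below the 3 NZW mice (2240, 2135, and 2161 CPM) and the 3 NZBWF1 mice (2205, 1932, and 2085 CPM). The log2 fold change of NZB over NZW was -0.25 ± 0.11 (SE), which missed the threshold (edgeR quasi-likelihood test with Benjamini-Hochberg adjustment, adjusted p = 0.268).

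In T cells and NK cells, Ms4a4b had the highest mean level of the 9 genes. It is known as a regulator of T cell proliferation that associates with the receptor GITR. Its level was 1683 ± 130 CPM in T cells and 1720 ± 251 CPM in NK cells, with 5 of 9 mice higher in NK cells (exact sign-flip test, p = 0.699, adjusted p = 1). At 1000 UMIs per cell, 76.1% of T cells and 79.0% of NK cells held a UMI of it, against 0.51% of precursor B cells. The next class, dividing monocytes, was at 60.0 ± 9.27 CPM, 4.80 ± 0.26 lower than T cells on the log2(CPM + 1) scale in 9 of 9 mice (exact sign-flip test, p = 0.00391, adjusted p = 0.0543). Ms4a6b was at 545 ± 134 CPM in T cells and 140 ± 50.002 CPM in NK cells. Ms4a6c was at 32.0 ± 26.1 and 20.5 ± 13.9 CPM in these classes, and Ms4a6d was at 12.5 ± 18.5 CPM in T cells and at 0 UMIs in NK cells.

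In the basophil or mast cell class, UMIs of both Ms4a2 and Ms4a3 were found. Ms4a2 was at 1408 ± 294 CPM over 7 mice, with 1262 and 1200 CPM in NZB 2 and 3, 1024, 1596, and 1784 CPM in NZW 1 to 3, and 1736 and 1256 CPM in NZBWF1 2 and 3. NZB 1 and NZBWF1 1 had fewer than 10 such cells and were left out. The values of the strains overlapped. Ms4a3 was at 741 ± 176 CPM in the same 7 mice. Markers of granulocyte-monocyte precursors, in which Ms4a3 is high, were present in this class as well, with a median of 0.324% of the UMIs of a cell. Without barcodes that also passed the precursor gate, a setting chosen after seeing the data, 100 cells were left, and over the 5 mice with at least 10 of them Ms4a3 was at 572 ± 146 CPM and Ms4a2 at 1422 ± 231 CPM. The class was small, with 126 cells in all, and Ms4a2 was elsewhere above 2 CPM in the mean only in stem and progenitor cells (41.4 ± 46.0 CPM, with 0 UMIs in 1 of 9 mice). Its 3 most similar genes over the 160 sums by class and mouse were Fcer1a (Pearson r = 0.948), Cpa3 (0.916), and Mcpt8 (0.884), all of them markers that set this class.

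Ms4a3 was at its highest in early myeloid cells and had a lower mean in each later class of the neutrophil row. Its level was 1172 ± 148 CPM in granulocyte-monocyte precursors, 227 ± 52.6 CPM in dividing neutrophil precursors, 115 ± 35.9 CPM in immature neutrophils, and 8.87 ± 7.68 CPM in mature neutrophils (n = 9 each). The precursors held 81.5% of the UMIs of this gene among the gated cells. The step from dividing precursors to immature neutrophils was downward in 9 of 9 mice, by 1.01 ± 0.47 on the log2(CPM + 1) scale (exact sign-flip test, p = 0.00391, adjusted p = 0.0543). In monocytes it was nearly absent, at 17.1 ± 10.9 CPM in the dividing and 6.82 ± 13.2 CPM in the classical class. At 1000 UMIs per cell, 57.1% of granulocyte-monocyte precursors held an Ms4a3 UMI, against 0.12% of precursor B cells.

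**Figure D3:**
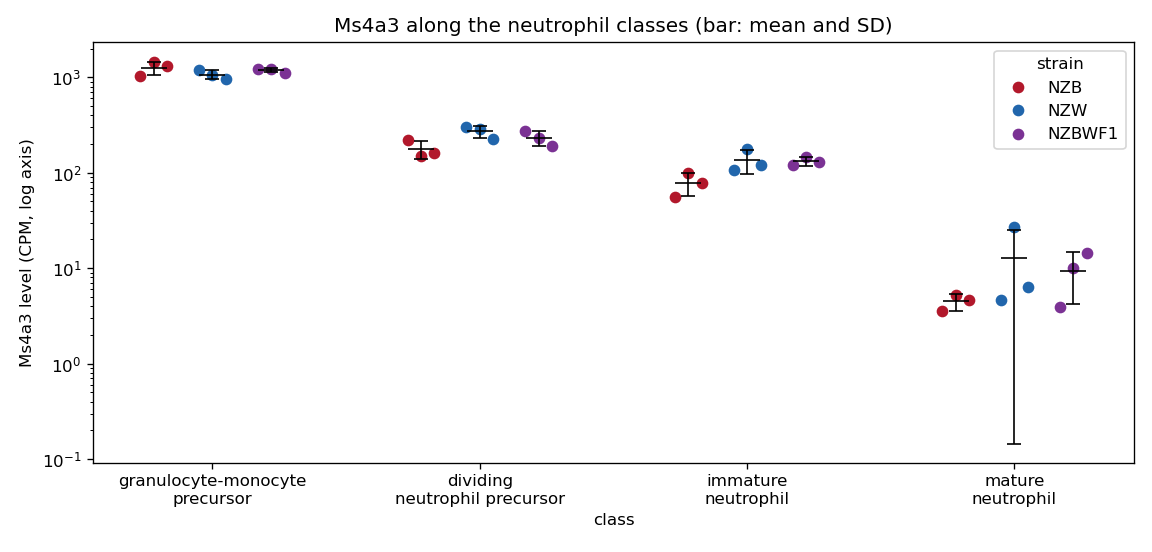
Level of Ms4a3 in CPM (log axis) in 4 classes from the granulocyte-monocyte precursor to the mature neutrophil, with 1 point per mouse and the mean and SD as bars. The mean goes from 1172 CPM to 8.87 CPM, and the NZB mice lie below the NZW mice in the dividing precursors and in the immature neutrophils.

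Of the 9 genes, 4 had the highest mean levels in both classical and dividing monocytes. Ms4a6c was the highest, with 1282 ± 144 CPM in classical and 1270 ± 152 CPM in dividing monocytes, and 5 of 9 mice were higher in the classical class (exact sign-flip test, p = 0.82, adjusted p = 1). It extended to conventional dendritic cells (891 ± 128 CPM, n = 6), nonclassical monocytes (760 ± 108 CPM, n = 8), and granulocyte-monocyte precursors (459 ± 45.7 CPM). Ms4a4c was at 443 ± 68.4 CPM in classical and 304 ± 95.7 CPM in dividing monocytes, and Ms4a6b at 380 ± 51.8 and 213 ± 46.8 CPM. Ms4a6d, whose product has been described beside the receptor Vsig4 on macrophages, was the lowest of these 4, at 152 ± 105 CPM in classical and 96.5 ± 99.3 CPM in dividing monocytes. The 70 macrophages, pooled over mice, held these genes as well. Ms4a6c was there at 383 CPM, Ms4a6b at 140 CPM, and Ms4a4c and Ms4a6d at 125 CPM each, from 52, 19, 17, and 17 UMIs. Ms4a4c, Ms4a6b, and Ms4a6d were each higher in the classical than in the dividing class in 9 of 9 mice, by 0.58 ± 0.33, 0.85 ± 0.26, and 0.92 ± 0.51 on the log2(CPM + 1) scale (exact sign-flip tests, p = 0.00391 each, adjusted p = 0.0543). At 1000 UMIs per cell, 68.7% of classical monocytes held an Ms4a6c UMI, 32.3% an Ms4a4c UMI, 29.3% an Ms4a6b UMI, and 13.1% an Ms4a6d UMI, against 0.17%, 0.19%, 0.60%, and 0.08% of precursor B cells.

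Ms4a7, a gene of mature tissue macrophages, had its highest level in a small class. Macrophages numbered 70 cells, and 3 mice had at least 10 of them, with 614 CPM in NZW 2 and 449 and 362 CPM in NZBWF1 2 and 3. These values rest on 14, 13, and 11 UMIs, and no NZB mouse had enough cells. Another 206 barcodes, left out for markers of other classes, had at least 0.3% of their UMIs in the macrophage markers. These held 62 of the 329 Ms4a7 UMIs of all kept barcodes, beside the 61 in the 70 macrophages. In classical monocytes, a far larger class, Ms4a7 was at 11.9 ± 7.69 CPM, and these held 76 of its 225 UMIs in gated cells (33.8%, against 27.1% in macrophages).

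None of the 153 pairs of neighbouring classes differed at an adjusted p under 0.05 in the exact test. Of them, 24 had an unadjusted p under 0.05, and 11 were at the smallest p that 9 mice allow, with an adjusted p of 0.0543. With barcodes left out that passed both the basophil and the precursor gate, 13 of 144 pairs passed.

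Over the 160 sums by class and mouse, the monocyte genes were the most alike among the 9, with a Pearson r of log2(CPM + 1) of 0.79 for Ms4a6b with Ms4a6c, 0.78 for Ms4a4c with Ms4a6c, 0.74 for Ms4a4c with Ms4a6b, and 0.72 for Ms4a6c with Ms4a6d. Of the pairs with shared promoter bases, Ms4a6b with Ms4a6c thus had an r of 0.79, and Ms4a4b with Ms4a4c had an r of 0.44. Among 11682 genes, those most like Ms4a6c were Npc2 (r = 0.872), Ccr2 (0.840), and Gm2a (0.839), and those most like Ms4a6d were Fn1 (0.811), Stxbp6 (0.802), and Cd302 (0.796). Ms4a3 was closest to Chst13 (0.826), Rab44 (0.807), and Ap3s1 (0.797). Ms4a4c was closest to S100a4 (0.836), Ahnak (0.835), and Ctsc (0.776), and Ms4a6b to Fam105a (0.853), Itgb7 (0.851), and S100a4 (0.833). Ms4a1 was close to Cd79a (0.891) and Fcmr (0.860), Ms4a4b to Sh2d1a (0.793), Klrk1 (0.790), and Xcl1 (0.789), and Ms4a7 to C1qc (0.651), Fcna (0.639), and Mrc1 (0.616). Ccr2, Fn1, Cd79a, Fcmr, Klrk1, C1qc, and Mrc1 were among the markers of the classes. The sums share mice, libraries, and depth, so these values describe likeness and are not tests.

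Next, the parent strains were compared in each class, to ask whether the level of a family gene differs between NZB and NZW. Ms4a6d was higher in NZB in all 3 myeloid classes in which it was tested, by 3.56-fold to 6.95-fold, Ms4a4c and Ms4a6b were moderately higher in dividing monocytes, Ms4a3 was lower in 2 neutrophil classes, and Ms4a6c was lower in plasmacytoid dendritic cells. In all, 9 of 42 tests of a member in a class passed an adjusted p of 0.05 (edgeR quasi-likelihood test, Benjamini-Hochberg adjustment within the class), 6 higher and 3 lower in NZB, from 5 genes. Of all genes in the same 17 classes, 8.29% of 83627 tests were called. The median log2 fold change of the 42 was -0.023 against -0.0049 over all tests, and the median size was 0.42 against 0.26. DESeq2 called 6, and the count was 5 without NZW 2.

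**Figure D4:**
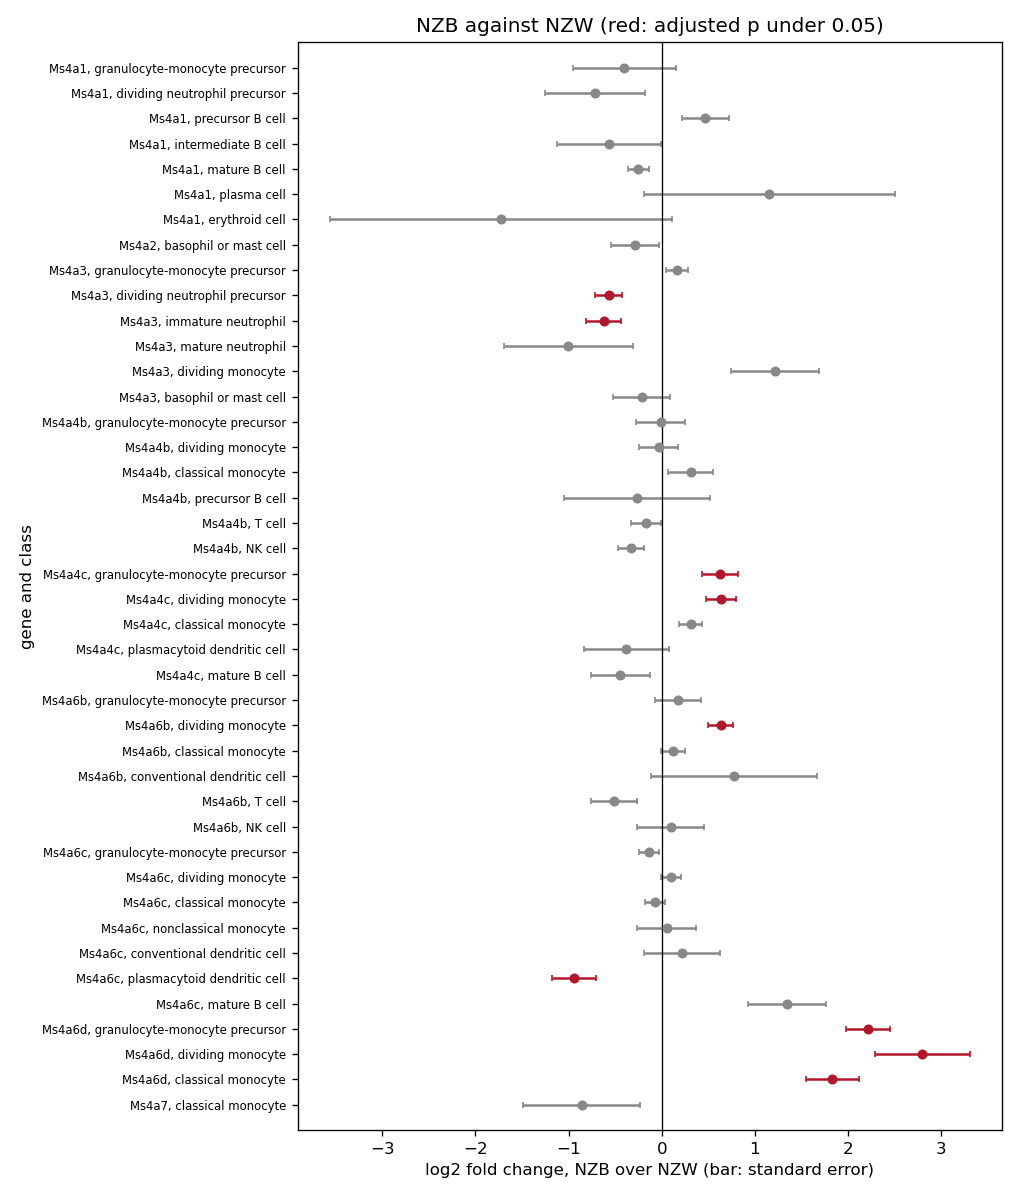
Log2 fold change of NZB over NZW for each of the 42 gene and class pairs tested, with the standard error as a bar and calls at an adjusted p under 0.05 in red. The 3 pairs of Ms4a6d lie farthest to the right among the calls, at 1.83 to 2.80, and the 2 calls of Ms4a3 and the call of Ms4a6c lie left of 0.

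Ms4a6d gave the widest gap between the strains. In classical monocytes it was at 132, 325, and 341 CPM in NZB 1 to 3, at 84.8, 64.5, and 76.1 CPM in NZW 1 to 3, and at 93.8, 122, and 132 CPM in NZBWF1 1 to 3. Every NZB mouse lay above every NZW mouse, and the lowest NZB mouse was level with the highest hybrid. The log2 fold change of NZB over NZW was 1.83 ± 0.29 (SE, adjusted p = 0.0009 in edgeR, where 17.7% of all genes were called in the class). In dividing monocytes the levels were 101, 323, and 192 CPM in NZB, 49.2, 21.2, and 31.7 CPM in NZW, and 50.7, 53.2, and 46.9 CPM in NZBWF1. No NZB value overlapped with those of the other strains. On the log2 scale NZB exceeded NZW by 2.80 ± 0.51 (adjusted p = 0.0145 in edgeR, background 12.6%), and the call was lost without NZW 2 (2.52, adjusted p = 0.0631) or without NZW 3 (2.76, adjusted p = 0.0704).

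In granulocyte-monocyte precursors, in which the gene is low, Ms4a6d was at 32.6, 56.1, and 46.9 CPM in NZB, 12.8, 5.29, and 11.2 CPM in NZW, and 10.3, 11.6, and 10.8 CPM in NZBWF1. The NZB mice again stood apart. Their log2 fold change over NZW was 2.22 ± 0.24 (adjusted p = 7.6e-10 in edgeR, background 12%), with 284 UMIs in NZB and 49 in NZW behind it. The calls in precursors and in classical monocytes were kept in 17 of 17 alternatives each, with log2 fold changes of 1.88 to 2.45 and 1.65 to 2.14. At 1000 UMIs per cell, the percent of classical monocytes with an Ms4a6d UMI was 11.1, 28.0, and 26.9 in NZB, 7.58, 6.04, and 6.40 in NZW, and 9.18, 10.97, and 11.5 in NZBWF1. Classical monocytes differed in number and depth as well, with 117 to 168 cells and a median of 2078 to 2570 UMIs in NZB against 322 to 534 cells and 1437 to 1850 UMIs in NZW.

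**Figure D5:**
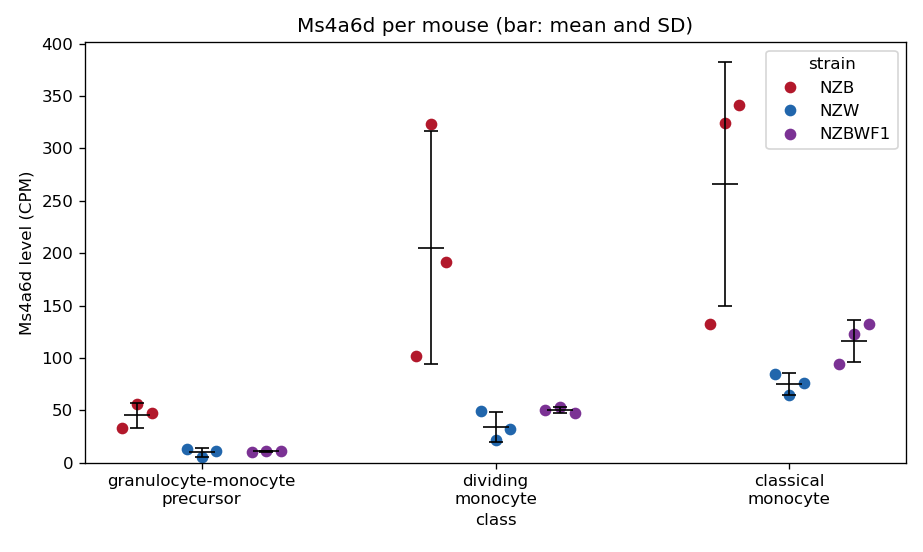
Level of Ms4a6d in CPM in 3 myeloid classes, with 1 point per mouse and the mean and SD as bars. In precursors and dividing monocytes the 3 NZB mice lie above all others, and in classical monocytes they lie at 132 to 341 CPM against 64.5 to 84.8 CPM in NZW.

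Markers of earlier cells differed between the strains within the monocyte gate. Of the 5 precursor markers all had UMIs in classical monocytes, and their summed share of UMIs was 0.0716% to 0.188% in NZB, 0.0290% to 0.0410% in NZW, and 0.0253% to 0.0312% in NZBWF1. Of the 18 neutrophil markers 17 had UMIs, with Chil3 at 0, and their share was 0.274% to 0.456%, 0.138% to 0.159%, and 0.122% to 0.174%. Chil3 was at 0 UMIs in every class checked, neutrophil classes included, so the neutrophil gate rested on the other 17 markers. The 8 classical monocyte markers took 0.593% to 0.692% in NZB and 0.796% to 0.837% in NZW. In dividing monocytes the neutrophil share was 0.209% to 0.411% in NZB, 0.115% to 0.137% in NZW, and 0.0928% to 0.144% in NZBWF1. The mean level of Ms4a6d was 45.2 ± 11.9 CPM in NZB precursors and 266 ± 116 CPM in NZB classical monocytes. The part of these markers in the results of Ms4a6d, Ms4a4c, and Ms4a6b in monocytes was not tested. Of the 13 macrophage markers 12 had UMIs, with Vsig4 at 0, and their share was lower in NZB (0.0113% to 0.0154%) than in NZW (0.0192% to 0.0225%).

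The other copies in monocytes differed less. Ms4a4c in dividing monocytes was at 304, 402, and 496 CPM in NZB, 355, 204, and 242 CPM in NZW, and 248, 244, and 244 CPM in NZBWF1. NZB 1 lay below NZW 1, so the parents overlapped. The log2 fold change was 0.63 ± 0.16 (adjusted p = 0.0092 in edgeR), and without NZW 3 the call was lost (0.57, adjusted p = 0.096). In granulocyte-monocyte precursors Ms4a4c was at 41.1, 41.9, and 37.9 CPM in NZB and at 25.6, 16.9, and 32.5 CPM in NZW, with 16.1, 19.6, and 28.2 CPM in NZBWF1. The parents did not overlap. The log2 fold change was 0.63 ± 0.19 (edgeR adjusted p = 0.025). That call was lost without NZB 2 (0.58, adjusted p = 0.125), without NZW 2 (0.38, adjusted p = 0.285), in DESeq2 (0.63, adjusted p = 0.142), and with a stricter gate (0.52, adjusted p = 0.104). Ms4a6b in dividing monocytes was at 221, 315, and 251 CPM in NZB, at 163, 167, and 196 CPM in NZW, and at 203, 207, and 190 CPM in NZBWF1. Every NZB mouse was above the other mice. Its log2 fold change was 0.63 ± 0.13 (edgeR adjusted p = 0.0003), with 0.41 and an adjusted p of 0.0967 without NZB 2. Ms4a6c, the highest gene of the group, had log2 fold changes of 0.10 ± 0.11 in dividing monocytes, -0.07 ± 0.11 in classical monocytes, and -0.14 ± 0.11 in precursors, none of which passed the threshold.

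In plasmacytoid dendritic cells, Ms4a6c was at 58.1, 52.3, and 79.2 CPM in NZB, at 109, 114, and 146 CPM in NZW, and at 64.8, 135, and 68.9 CPM in NZBWF1. The NZB mice lay below the NZW mice, and the hybrids spread over both. On the log2 scale NZB less NZW was -0.94 ± 0.24 (adjusted p = 0.0055 in edgeR, background 7.09%). It was lost without NZW 3 (-0.81, adjusted p = 0.0966), in DESeq2 (-0.94, adjusted p = 0.0566), with a stricter gate (-0.75, adjusted p = 0.117), and with cells of at least 2000 UMIs (-0.42, adjusted p = 0.994). NZB had 314 to 572 of these cells per mouse and NZW 107 to 169. The 13 stem and progenitor markers, 11 of them with UMIs, took 0.121% to 0.197% of the UMIs of this class in NZB and 0.0167% to 0.0210% in NZW, and the part of this in the result was not tested.

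Ms4a3 was lower in NZB in 2 of the 3 neutrophil classes. In dividing neutrophil precursors it was at 223, 150, and 163 CPM in NZB, 298, 288, and 227 CPM in NZW, and 271, 233, and 190 CPM in NZBWF1. The ranges of the parents came close without overlap, at 223 and 227 CPM. NZB less NZW came to -0.57 ± 0.15 in log2 units (adjusted p = 0.013 in edgeR, background 9.53%). In immature neutrophils the levels were 56.1, 98.3, and 77.9 CPM in NZB, 107, 177, and 121 CPM in NZW, and 119, 146, and 131 CPM in NZBWF1. The ranges were again apart, and NZB less NZW was -0.62 ± 0.19 in log2 units (adjusted p = 0.0483 in edgeR, background 9.16%). In mature neutrophils the levels were 3.52, 5.26, and 4.70 CPM in NZB and 4.62, 27.1, and 6.30 CPM in NZW, which overlapped (-1.002 ± 0.69 in log2 units, adjusted p = 0.422 in edgeR). In granulocyte-monocyte precursors the NZB mice were at 1035, 1430, and 1314 CPM and the NZW mice at 1182, 1066, and 949 CPM (log2 fold change 0.16 ± 0.12, edgeR adjusted p = 0.429).

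The call of Ms4a3 in dividing neutrophil precursors was kept in 11 of 16 alternatives. That in immature neutrophils was near the threshold and was kept in 8 of 17, with an edgeR adjusted p of 3.0e-04 under a replicate block. The first was lost without NZB 2 (-0.46), NZB 3 (-0.49), NZW 1 (-0.48), or NZW 2 (-0.52), at adjusted p-values of 0.068 to 0.112, and with cells of at least 2000 UMIs (-0.42, adjusted p = 0.154). The second was lost without NZB 1 (-0.47), NZB 3 (-0.57), NZW 2 (-0.38), or any 1 of the NZBWF1 mice (-0.61 to -0.62), at adjusted p-values of 0.0505 to 0.221, in DESeq2 (-0.63, adjusted p = 0.0681), with cells of at least 2000 UMIs (-0.57), and with doublets kept (-0.58). The sign was negative in every alternative.

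In the remaining classes with a tested member, edgeR made 0 calls of a member. These were precursor B cells (1.99% of all genes called), intermediate B cells (1.42%), mature B cells (3.28%), plasma cells (0.579%), T cells (1.65%), NK cells (2.5%), conventional dendritic cells (1.47%), nonclassical monocytes (6.68%), basophils or mast cells (6.23%), mature neutrophils (13.7%), and erythroid cells (9.17%). Only 1 NZW mouse had 10 plasma cells and only 1 NZB mouse had 10 conventional dendritic cells, so these 2 comparisons assume that the lone mouse varies like the others. NZB had 2 mice in nonclassical monocytes and in the basophil or mast cell class. Of all 42 tests of members, 15 had an unadjusted p under 0.05. Ms4a4b was at 1529, 1473, and 1668 CPM in NK cells of NZB and 2054, 1661, and 2227 CPM in those of NZW (log2 fold change -0.33 ± 0.14, edgeR adjusted p = 0.37). Ms4a6c in mature B cells was at 60.6, 93.6, and 69.3 CPM in NZB and 43.6, 31.3, and 9.95 CPM in NZW (1.34 ± 0.42, edgeR adjusted p = 0.0768), from 32 and 49 UMIs. It passed in edgeR with a replicate block (1.43, adjusted p = 0.0163), without a filter on low counts (1.24, adjusted p = 0.0478), without NZW 1 (1.88, adjusted p = 0.0107), and without NZBWF1 1 (1.34, adjusted p = 0.0437). Ms4a3 in dividing monocytes (1.21 ± 0.47, edgeR adjusted p = 0.0858) passed without NZB 1 (1.41, adjusted p = 0.0125), NZBWF1 2 (1.21, adjusted p = 0.049), or NZBWF1 3 (1.21, adjusted p = 0.0336), without a filter (1.21, adjusted p = 0.039), and with doublets kept (1.49, adjusted p = 0.012). Ms4a4c in classical monocytes (0.31 ± 0.12, adjusted p = 0.0729) passed in edgeR without NZB 1 (0.40, adjusted p = 0.0304) and with doublets kept (0.35, adjusted p = 0.0303).

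The hybrid was then set against the mean of its parents, as the study did, to find genes whose level in the hybrid departs from that mean. The 9 genes gave 0 calls in 42 tests with edgeR and 0 with DESeq2, with 7 at an unadjusted p under 0.05, while 0.529% of the 83627 tests of all genes were called. Ms4a6d in precursors came nearest, with a log2 difference of -0.96 ± 0.25 (edgeR adjusted p = 0.11). It was called without NZB 1 (-1.04, adjusted p = 0.0156) and without NZW 2 (-1.12, adjusted p = 0.0163), and each time Ms4a4c in dividing monocytes was called as well (-0.52 and -0.54, adjusted p = 0.014 and 0.0284), which made 2. The hybrid was far from NZB for this gene (log2 fold change of NZBWF1 over NZB -2.06 ± 0.23 in precursors, -2.21 ± 0.53 in dividing monocytes, and -1.18 ± 0.28 in classical monocytes). Against NZW the same values were 0.15 ± 0.32, 0.59 ± 0.75, and 0.66 ± 0.30. These values share the hybrid mice and are given without a test.

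To ask whether NZB less NZW differs between monocytes and neutrophils of the same mice, the difference itself was tested for 8 of the 9 genes. Ms4a3 passed, with a log2 difference of 3.51 ± 0.90 (edgeR adjusted p = 0.0153, background 9.15%), but classical monocytes held 0, 15, and 2 UMIs of it in NZB 1 to 3 and 0, 4, and 1 in NZW 1 to 3. In classical monocytes alone Ms4a3 was too low to be tested, and it entered this test through the neutrophils. The value therefore cannot say whether the strain difference differs between the classes. Without NZB 2, the value was 1.19 and the adjusted p 0.716, and without NZW 3 it was 3.34 with an adjusted p of 0.0569. NZB 2 had the highest share of precursor markers (0.188%) and of neutrophil markers (0.456%) in classical monocytes among the 9 mice, and their part in the value was not tested. Ms4a6d had a log2 difference of 2.24 ± 1.03, which missed the threshold (edgeR adjusted p = 0.185), with mean levels of 0.24 to 1.0 CPM in the neutrophil classes. It was too low to be tested in any neutrophil class and entered through the monocytes, so its value cannot compare the classes either.

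Genes around the family were counted from lists. Of 14 other family members, 12 were in the table and 3 were tested (Ms4a8a, Tmem176a, Tmem176b), and 2 of 18 tests were called, both of Tmem176a and both higher in NZB (edgeR, log2 fold change 0.49 ± 0.15 in precursors and 0.93 ± 0.25 in dividing monocytes), beside 8.73% of the tests of all genes in the same 8 classes. Ms4a8a was a further monocyte gene, at 127 ± 18.5 CPM in classical and 53.0 ± 15.2 CPM in dividing monocytes, without a call. Ms4a5, Ms4a10, Ms4a12, Ms4a13, and Ms4a18 were at 0 UMIs in every class. Of 14 neighbours on chromosome 19, 11 were tested, and 2 of 72 tests were called, beside 8.17% of all tests in their 16 classes, both lower in NZB: Ccdc86 in dividing neutrophil precursors (-1.48 ± 0.50) and Stx3, a gene of vesicle fusion, in dividing monocytes (-0.71 ± 0.24). The median log2 fold change was -0.045 for the other family members and 0.044 for the neighbours.

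Partners are genes whose products act with MS4A proteins or in the same complexes, and 16 of 17 were in the table and 15 were tested. Of 130 tests, 22 were called, 11 higher and 11 lower in NZB, with a median log2 fold change of 0.032, beside 8.1% of the tests of all genes in their 18 classes. Trem2, a lipid receptor of macrophages and microglia whose shed form has been tied to the MS4A locus in human genetics, was higher in NZB in the same 3 classes as Ms4a6d. In classical monocytes it was at 83.1 ± 26.0 CPM in NZB, 4.90 ± 3.76 CPM in NZW, and 22.9 ± 8.86 CPM in NZBWF1 (edgeR log2 fold change 3.97 ± 0.39). The values were 3.42 ± 0.42 in dividing monocytes and 2.58 ± 0.26 in precursors. Its signalling adaptor Tyrobp was lower in NZB precursors (-0.35 ± 0.11) and in the basophil or mast cell class (-0.66 ± 0.22), and higher in intermediate B cells (1.89 ± 0.50). Cd37, a tetraspanin of leukocytes, was higher in NZB in the 3 neutrophil classes (0.63 to 0.86) and in dividing (0.66) and classical (0.98) monocytes, and lower in precursors (-0.57) and plasmacytoid dendritic cells (-0.67). Cd53, another tetraspanin, was higher in dividing monocytes (0.73 ± 0.16). Cd40 was lower in dividing (-1.50 ± 0.46) and classical monocytes (-1.97 ± 0.45). Cdkn3, the partner of Ms4a3, was higher in classical monocytes (1.89 ± 0.43) and lower in erythroid cells (-0.88 ± 0.16). The B cell receptor genes Cd79a and Cd79b were lower in NZB in cells that do not make B cell receptors, Cd79a in erythroid cells (-1.91 ± 0.40) and Cd79b in precursors (-0.84 ± 0.18), dividing neutrophil precursors (-1.87 ± 0.41), and classical monocytes (-1.69 ± 0.42). Between the hybrid and the mean of its parents, 1 of 130 tests of a partner was called (0.517% of all tests in these classes), Cd79b in erythroid cells (1.70 ± 0.36, edgeR adjusted p = 0.0403), at 18.4 ± 11.6 CPM in NZBWF1, 2.94 ± 1.52 CPM in NZB, and 7.09 ± 4.10 CPM in NZW. NZB mice had 57 to 113 mature B cells and NZW mice 298 to 445, and the part of this difference in these calls was not tested.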

How the data were processed

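Bone marrow cells of 9 mice were measured by droplet single-cell RNA sequencing (10x 3′), with 1 library per mouse. The authors made and deposited raw UMI counts per gene and barcode with Cell Ranger 3.1.0 on mm10, after bcl2fastq 2.20, per the submitters' processing notes, and the release of the gene annotation was not given in these sources. The libraries were merged by the authors, and whether depth was equalized in merging was not stated. The mouse of a barcode was read from the number after it, taken as the place of a library in the deposited list of merged libraries (the Cell Ranger convention), and every value per mouse rests on this. Depth was 8106539 to 18663189 UMIs per mouse in kept barcodes, and intervals on counts cover counting error only.

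A barcode was kept from 1000 UMIs and 500 detected genes upward, if no more than 10% of its UMIs were mitochondrial, with Scanpy 1.11.5. Doublets were called with Scrublet per mouse at 0.8% per 1000 barcodes. Each class was gated on the percent of UMIs in a marker list, with at least 3 marker UMIs from 2 genes. The members, gene lists, and gates were chosen with earlier results of these data known.

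Counts were summed per class and mouse, with mice under 10 cells left out, and tested with edgeR 4.0.16 (TMM, quasi-likelihood, R 4.3.3) for all genes, with Benjamini-Hochberg adjustment within a class and a threshold of 0.05. Standard errors were taken as the size of the log2 fold change over the square root of F. NZB was compared with NZW, and NZBWF1 with the mean of its parents. The strain difference in monocytes less that in neutrophils was tested with terms for mice. Neighbouring classes in the order of levels were compared with an exact two-sided sign-flip test on log2(CPM + 1) over mice. Percents of cells with a UMI are expected values after thinning each cell to 1000 UMIs. Alternatives were DESeq2 1.42.0, no filter on low counts, other cell filters and gates, free RNA subtracted, doublets kept, a replicate block, and each mouse left out. The scripts were tested on simulated data. All 9 members were named in every class, and of the other lists the genes with a call. For each member the 3 genes most like it were named, except 1 that is not reported here.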

Additional observations from a re-analysis of the deposited data

Results flagged for a closer look

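For Ms4a3, NZB less NZW in classical monocytes, less the same in neutrophils, was 3.51 on the log2 scale (edgeR adjusted p = 0.0153 for the difference itself). In the neutrophil classes NZB less NZW was negative. In classical monocytes alone the gene was too low to be tested, and it entered this test through the neutrophils. The value therefore cannot say whether the strain difference differs between the classes. Classical monocytes held only 0.128% of the Ms4a3 UMIs of gated cells. Without NZB 2, the value was 1.19 and the adjusted p 0.716.

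Ms4a6c had a higher level in NZB than in NZW in conventional dendritic cells (log2 fold change 0.21) and a lower one in plasmacytoid dendritic cells (-0.94). The first rests on 1 NZB mouse with at least 10 such cells, and the difference between the classes was not tested.

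Ms4a6c in NZB was also above NZW in mature B cells (log2 fold change 1.34, edgeR adjusted p = 0.0768) and below it in plasmacytoid dendritic cells (-0.94), and this difference was not tested. With a replicate block the value in mature B cells passed (1.43, edgeR adjusted p = 0.0163).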

How the results depend on the processing

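Of 168 values that the alternatives gave for the called results, 137 stayed past the threshold and 0 changed sign. The calls of a member in a class between NZB and NZW numbered 9, and 5 to 10 with 1 mouse left out, the lowest without NZW 2. The number was 12 without a filter, 6 with DESeq2, 6 at 2000 UMIs, 6 with a stricter gate, and 12 with doublets kept. The count of 0 for the hybrid against the mean of its parents became 2 without a filter and 1 with doublets kept, and ran from 0 to 2 with 1 mouse left out. The count of 1 for monocytes against neutrophils was Ms4a3, which entered through the neutrophils and cannot compare the classes. That count became 0 with DESeq2 (3.00, adjusted p = 0.285), 0 at 2000 UMIs, and 0 with doublets kept, and ran from 0 to 2 with 1 mouse left out. Neighbouring classes that differed numbered 0 of 153 and 13 of 144 with barcodes over both the basophil and the precursor gate left out, a setting chosen after seeing the data. The causes of these changes were not tested. With 1 mouse left out the count was 0 each time, but the smallest p is then 0.00781, so this says nothing about stability. With a replicate block, 10 tests of a member in a class were called between the parents, with Ms4a6c in mature B cells among them (1.43, edgeR adjusted p = 0.0163), and 0 for the hybrid. Mice with the same number deviated from their group means with a correlation of -0.0861 to 0.267, over 0.1 in 15 of 54 pairs, of which 5 were in immature and 6 in mature neutrophils (9 pairs each). In none of the 6 classes checked were all pairs over 0.1, and the main fits hold no term for the number. For immature neutrophils, NZB 1 was at 0.267 with NZW 1 and at -0.221 with NZW 2, while NZB 3 was at 0.034 with NZW 3. The cell mix followed the number in some classes, though not in all. Mature neutrophils took 22.8%, 11.1%, and 17.7% of gated cells in NZB 1 to 3. They took 16.4%, 6.59%, and 14.2% in NZW 1 to 3 and 21.0%, 9.47%, and 11.8% in NZBWF1 1 to 3. Whether mice of the same number shared a batch was not tested. With the block Ms4a3 in immature neutrophils was at -0.65 (edgeR adjusted p = 3.0e-04). The number of cells limits the macrophages and megakaryocytes, in which 3 mice had 10 cells, and the conventional dendritic cells, in which 6 did.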
